A study of Mus musculus with 15 samples.

Results

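Global Aster-B/C knockout mice were compared with wild-type mice while both ate ezetimibe. Aster proteins, encoded by the Gramd1 genes, sit in the endoplasmic reticulum, bind plasma membrane cholesterol at membrane contact sites and carry it inward. In the absorptive cells of the small intestine, NPC1L1 brings dietary and biliary cholesterol into the brush border membrane, and ezetimibe blocks NPC1L1. Cholesterol that reaches the endoplasmic reticulum is esterified and packed into chylomicrons, and it holds back SREBP2, the transcription factor of sterol synthesis and uptake genes. Oxysterols formed from it activate the liver X receptors (LXR), which raise exporters such as ABCA1.

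The comparison used 8 of the 15 libraries of the study, 4 of each genotype. Each was RNA from the distal jejunum of a male C57BL/6 mouse of 13 to 15 weeks. The knockout (KO) mice were global Aster-B/C knockouts, without a tissue-specific driver, and the controls were wild type (WT). All 8 mice ate a diet with 0.08% cholesterol and 0.01% ezetimibe. The other 7 libraries, 4 WT and 3 KO, came from mice on the same cholesterol diet without the drug and are given beside the results. Which exons were deleted, and whether the mice shared cages, litters or days, is not given in the labels. The p-values therefore speak only of the spread among these libraries.

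The 8 libraries held between 14364477 and 16394746 reads in genes. Genes with at least 1 read numbered 20926 to 21328 in WT and 20075 to 20729 in KO, without overlap. Values are normalised counts, meaning reads divided by a size factor per library, and 14299 of 26844 genes had at least 10 in at least 3 of the 15 libraries and were tested. Log2 levels of replicates correlated across genes with r of 0.981 to 0.987 in WT and 0.973 to 0.982 in KO. On the first principal component of all 15 libraries, which held 27.6% of the variance, WT replicate 2 and KO replicate 3 were farthest apart among these 8. The tissue label was checked against marker genes. Brush border genes summed to between 786838 and 1290600 normalised counts per library, smooth muscle genes to between 26.6 and 103, and genes of pancreatic acinar cells to between 0.943 and 13.8. Adipocyte genes summed to between 2931 and 3722 in WT and between 2092 and 4224 in KO, most of it Cidec, a lipid droplet protein. All 7 tested adipocyte genes had positive log2 fold changes in KO, with a median of 1.90, and none of the 7 had groups apart. With 1 library left out that median ranged from 1.33 (without WT replicate 2) to 2.99 (without WT replicate 1). It was 1.28 with WT replicate 2 and KO replicate 3 both left out. Adipoq, the fat cell hormone adiponectin, had 26.4, 0, 5.66 and 0 normalised counts in WT and 19.3, 16.1, 12.8 and 10.7 in KO. The part of fat tissue in the results was not tested. KO replicate 3 had 2535 normalised counts of Fabp6, a bile acid binding protein of the ileum, against 107 to 321 in the other KO libraries and 47.4 to 174 in WT. Summed counts of 5 proximal small intestine genes did not overlap, at 44838.2 to 55963.9 in WT and 62894.6 to 79476.5 in KO. Singly, 3 of the 5 had positive log2 fold changes in KO, with a median of 0.11. All 3 distal small intestine genes had positive values, with a median of 0.70, or 0.42 without KO replicate 3. Their sums overlapped, at 954.068 to 1464.15 in WT and 1288.33 to 5383.63 in KO. The part of position along the gut in the results, for KO replicate 3 or between the genotypes, was not tested.

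Limma called 1 gene, Gramd1c, at an adjusted p under 0.05, which is 0.00699% of the genes tested. At an unadjusted p under 0.05 it found 2352 genes, 16.4%, with 1165 higher (8.15%) and 1187 lower (8.3%) in KO. That number was 1216 without WT replicate 2, 1536 without WT replicate 4, 1546 without KO replicate 3, and 909 with both WT replicate 2 and KO replicate 3 left out. In 728 genes all 4 KO libraries were above all 4 WT libraries (5.09% of genes tested), and in 692 all were below (4.84%), together 9.93%. The authors' deposited table of this comparison holds 72 genes (0.504%), of which 47 were higher in KO and 25 lower. Below, a gene is called separated where the 4 libraries of each genotype do not overlap.

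A gene's fold change varied with its level. The genes tested were divided by mean value into 10 classes of equal size, from class 1 (lowest) to class 10 (highest). The median log2 fold change was −0.19 in class 3 and 0.14 in class 10, where 79.5% of genes had positive values. Separated genes made up 15% of class 10 in the higher direction and 1.05% in the lower direction. In class 4 the shares were 1.96% and 9.37%, and in class 8 they were 7.97% and 1.96%. Class 6 had a median of −0.027, class 8 of 0.069 and class 9 of 0.11. Across genes the fold change also correlated weakly with transcript length, with a Spearman rho of 0.109 on ezetimibe and −0.199 on the control diet. Normalised counts summed to 15168762, 14199427, 15465359 and 14589152 in the WT libraries and to 16001951, 15643245, 17652675 and 16407724 in KO, so each KO sum was above each WT sum. The class of the middle member is given beside each list below, and the part of level, length or number of genes detected in the results was not tested.

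The targeted genes were examined first. Gramd1c encodes Aster-C and lies on chromosome 16, 43980350 to 44063345, minus strand (mm10). It had 1243, 1106, 1102 and 1394 normalised counts in the 4 WT libraries and 71.8, 144, 120 and 156 in the 4 KO libraries. The genotypes were far apart, with a log2 fold change of −3.34 ± 0.23 (SE, with an adjusted p of 2.31e-06 by limma). Gramd1b encodes Aster-B and lies on chromosome 9, 40293233 to 40531383, minus strand. It had 2859, 2995, 3697 and 3412 normalised counts in WT and 1763, 1754, 2086 and 1744 in KO. All KO libraries were below all WT libraries, and each still held at least 1744, at a log2 fold change of −0.82 ± 0.16 (SE, with an adjusted p of 0.171 by limma). The authors' deposited table lists Gramd1b as lower at −0.82 (adjusted p = 0.00203). Without the drug the Gramd1b difference was −1.44 ± 0.17. The difference between the diets, 0.62 ± 0.24 (log2, SE), did not pass (limma adjusted p = 0.681). Gramd1a, which encodes Aster-A, another member of the family, had 226, 298, 298 and 230 normalised counts in WT and 185, 184, 243 and 184 in KO. KO replicate 3 lay within the WT range for Gramd1a, and the log2 fold change was −0.40 ± 0.17 (SE, with an adjusted p of 0.286 by limma).

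**Figure D1:**
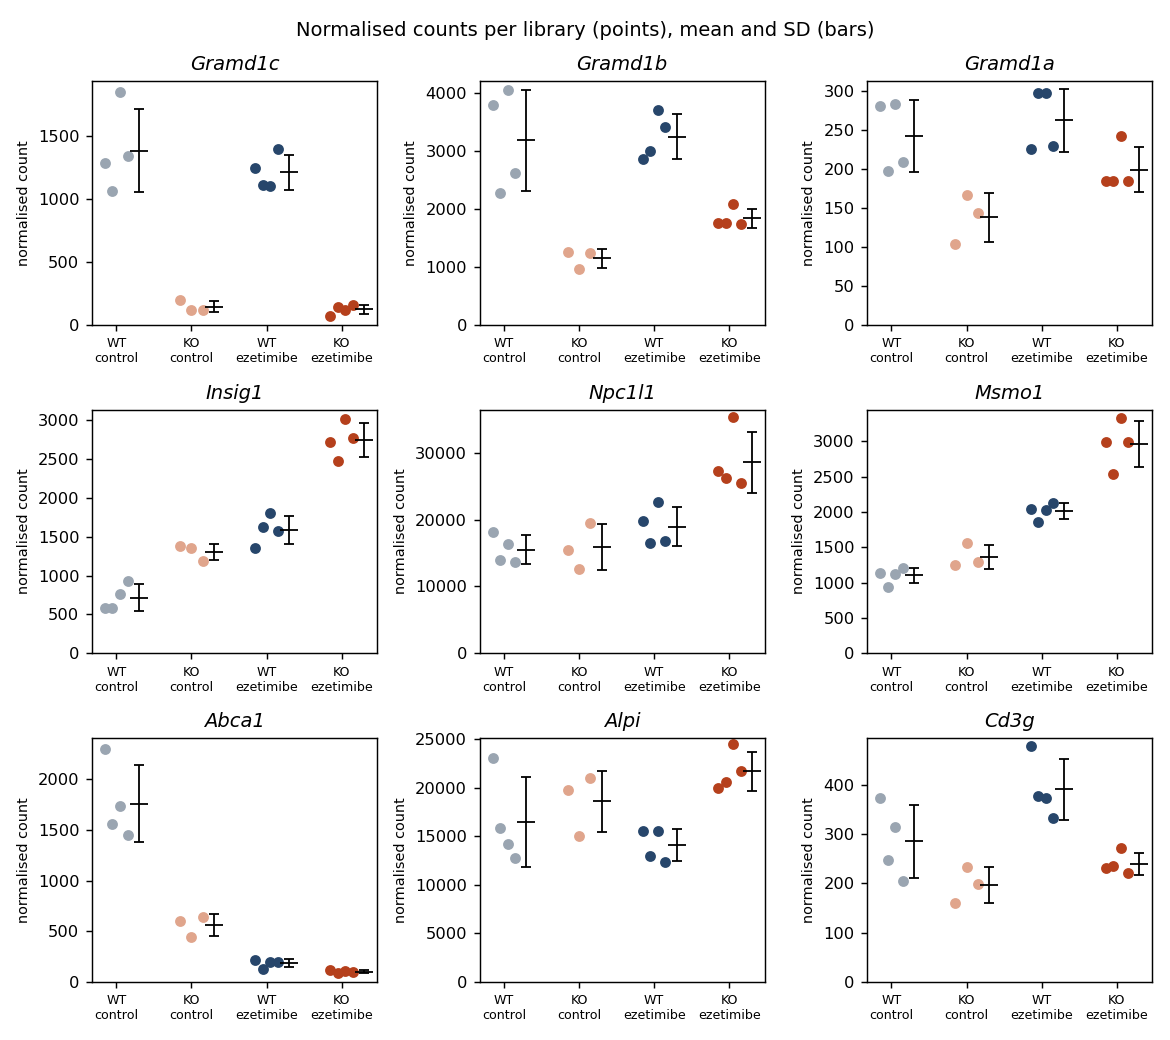
Normalised counts of 9 genes (vertical axes) in each library of the 4 groups of genotype and diet, with points for libraries and bars for the mean and SD. On ezetimibe the KO libraries lie apart from the WT libraries for Gramd1c, Gramd1b, Insig1, Npc1l1, Msmo1, Abca1, Alpi and Cd3g, and overlap them for Gramd1a.

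Promoters of 4 genes of sterol balance are shown because these genes were separated between genotypes in both directions. The sequences are from RefSeq (GRCm38.p6, the assembly of mm10) and run 5′ to 3′ on the gene's strand. They span 250 bases before to 50 bases after the RefSeq transcription start. Gene coordinates in the text are from GENCODE, whose gene starts differ from these for Insig1, Msmo1 and Npc1l1. For Npc1l1 the whole stretch lies before the GENCODE start at 6230143. Positions in the promoters hold for the RefSeq start only. Insig1 encodes an endoplasmic reticulum protein that retains SREBP2 when sterols are plentiful, Msmo1 a sterol demethylase of cholesterol synthesis, Npc1l1 the importer that ezetimibe blocks, and Abca1 a cholesterol exporter. Capitals mark the CCAAT box, the letters CCAAT or their complement ATTGG, in the first 3 genes. In Abca1 they mark the complement of GGTNA, 5 free bases and GGTNA again, a direct repeat with 4 spacer bases, which is the form that LXR dimers are known to bind.
Insig1 (chr5:28071162-28071461, plus strand): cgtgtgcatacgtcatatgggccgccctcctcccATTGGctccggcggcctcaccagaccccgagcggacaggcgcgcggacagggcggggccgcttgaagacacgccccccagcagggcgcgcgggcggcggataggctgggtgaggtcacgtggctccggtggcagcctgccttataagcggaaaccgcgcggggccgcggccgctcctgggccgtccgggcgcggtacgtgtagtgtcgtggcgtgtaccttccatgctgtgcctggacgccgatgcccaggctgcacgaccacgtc
Msmo1 (chr8:64733529-64733828, minus strand): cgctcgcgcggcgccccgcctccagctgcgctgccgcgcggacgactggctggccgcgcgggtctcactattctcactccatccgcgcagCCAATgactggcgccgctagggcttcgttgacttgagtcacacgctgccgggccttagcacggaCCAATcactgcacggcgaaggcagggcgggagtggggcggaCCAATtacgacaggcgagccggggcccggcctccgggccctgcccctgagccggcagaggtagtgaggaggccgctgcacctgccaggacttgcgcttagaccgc
Npc1l1 (chr11:6230196-6230495, minus strand): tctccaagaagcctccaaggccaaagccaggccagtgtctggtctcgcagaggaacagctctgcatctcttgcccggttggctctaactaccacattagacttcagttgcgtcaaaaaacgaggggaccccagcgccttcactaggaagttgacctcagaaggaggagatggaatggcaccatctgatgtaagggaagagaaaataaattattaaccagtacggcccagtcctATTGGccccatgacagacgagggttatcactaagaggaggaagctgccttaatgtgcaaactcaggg
Abca1 (chr4:53159846-53160145, minus strand): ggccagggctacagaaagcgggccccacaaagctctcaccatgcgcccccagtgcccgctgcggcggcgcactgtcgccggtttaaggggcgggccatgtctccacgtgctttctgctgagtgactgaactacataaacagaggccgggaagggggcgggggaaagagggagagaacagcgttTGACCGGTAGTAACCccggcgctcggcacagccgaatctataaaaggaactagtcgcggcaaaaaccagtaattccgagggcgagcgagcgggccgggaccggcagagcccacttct
Both strands were searched. The CCAAT box was in 37.4% of 32851 promoters of this length and in 14 of the 15 cholesterol synthesis genes that the promoter table holds. It lay at −216 to −212 in Insig1, at −17 to −13 in Npc1l1 and at 3 places in Msmo1, starting at −160, −96 and −55. The direct repeat was in 0.718% of promoters and in 2 of 11 LXR genes in the table, Abca1, where it lay at −67 to −53, and Srebf1. A sterol regulatory element spelled TCACNCCAC was in 1.24% of promoters and in 1 of the 15 synthesis genes, Hmgcs1. These are matches of letters only.

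Cholesterol synthesis genes had higher values in KO in 17 of 20 cases, with a median log2 fold change of 0.23 against −0.0018 over all genes tested. None was called by limma. Msmo1 had 2048, 1853, 2032 and 2126 normalised counts in WT and 2993, 2538, 3333 and 2997 in KO, so that its log2 fold change was 0.55 ± 0.10 (SE, with an adjusted p of 0.171 by limma). Every KO library was above every WT library, and the authors' deposited table lists Msmo1 at 0.56 (adjusted p = 0.000889). The sterol reductase gene Tm7sf2 had 327, 257, 277 and 253 normalised counts in WT and 398, 343, 384 and 388 in KO. The authors' deposited table lists Tm7sf2 as higher at 0.44 (adjusted p = 0.0482). Sc5d, a sterol desaturase gene, had a log2 fold change of 0.35 ± 0.10 (SE, with an adjusted p of 0.223 by limma). In all, 4 of the 20 were separated, each higher in KO, among them Msmo1, Tm7sf2 and Sc5d. These act after lanosterol, the first sterol of the pathway. Sqle, the earlier enzyme squalene epoxidase, had 1622, 1625, 1321 and 1746 normalised counts in WT and 1624, 1986, 2788 and 2087 in KO. KO replicate 1 lay inside the WT range for Sqle. Hmgcs1, which acts near the start of the pathway, had a log2 fold change of 0.37 ± 0.15 and Nsdhl, an enzyme after lanosterol, 0.34 ± 0.12 (SE, with an adjusted p of 0.279 and 0.244 by limma). Their libraries overlapped as well. Under quantile scaling, in which every library is given the same distribution of values, Hmgcs1 was at 0.24, and Nsdhl was at 0.19 with WT replicate 2 and KO replicate 3 left out. On the control diet 8 of the 20 were separated, all higher in KO, with a median of 0.33, where 6.59% of all genes tested were separated and higher. The list's middle member was in class 8 by level, whose median was 0.069, and its own median was 0.15 under quantile scaling. The 4 of 20 separated and higher stand beside 7.97% in class 8.

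Of the 9 genes around SREBP2 and its escort and retention proteins, 1 was separated, in the higher direction. The middle member was in class 9 by level, where 11.3% of genes were separated and higher. Insig1 (chromosome 5, 28071363 to 28078662, plus strand) had 1353, 1621, 1803 and 1568 normalised counts in WT and 2721, 2479, 3013 and 2772 in KO. The lowest KO library was well above the highest WT library, at a log2 fold change of 0.80 ± 0.14 (SE, with an adjusted p of 0.171 by limma). The authors' deposited table lists Insig1 as higher at 0.79 (adjusted p = 0.000388). The control diet gave a similar Insig1 difference, 0.89 ± 0.15, at a lower level in both genotypes, with 581 to 933 in WT and 1184 to 1374 in KO. Srebf2, which encodes SREBP2, overlapped, with 1818 to 2276 in WT and 2048 to 2545 in KO and a log2 fold change of 0.14 ± 0.11 (SE, with an adjusted p of 0.525 by limma). The Srebf2 value was 0.020 under quantile scaling, 0.074 without KO replicate 4 and 0.082 without WT replicate 3.

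Among 12 sterol uptake genes, 4 were separated, all higher in KO, and the median log2 fold change was 0.24, or 0.15 without KO replicate 4. The middle member was in class 8, where 7.97% of genes were separated and higher. Of the 12, 5 were in class 10, where that share was 15%. Npc1l1 (chromosome 11, 6211013 to 6230143, minus strand) had 19800, 16502, 22690 and 16851 normalised counts in WT and 27277, 26229, 35340 and 25474 in KO. The groups did not overlap, with a log2 fold change of 0.59 ± 0.16 (SE, with an adjusted p of 0.223 by limma), and the authors' deposited table lists Npc1l1 as higher (adjusted p = 0.0413). Under quantile scaling the Npc1l1 difference was 0.39. Without the drug it was 0.02 ± 0.17. The difference between the diets was 0.57 ± 0.23, which did not pass (limma adjusted p = 0.681). Lrp1, a large endocytic lipoprotein receptor, had 4007, 3409, 4931 and 4151 normalised counts in WT and 6053, 5595, 6126 and 6259 in KO. It was higher in every KO library than in any WT library, at a log2 fold change of 0.55 ± 0.15 (SE, with an adjusted p of 0.223 by limma), and Lrp1 is not in the authors' deposited table.

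The 13 LXR receptors and targets did not share a direction, with 7 positive and 6 negative values. The median was 0.11 and became −0.0081 under quantile scaling and 0.0056 without KO replicate 1. Of the 13, 2 were separated and higher and 2 separated and lower. The middle member was in class 8 by level, where the shares were 7.97% and 1.96%. Abca1 (chromosome 4, 53030787 to 53159895, minus strand) had 213, 128, 196 and 196 normalised counts in WT and 115, 84.7, 105 and 98.0 in KO. All KO libraries were below all WT libraries, at a log2 fold change of −0.84 ± 0.18 (SE, with an adjusted p of 0.171 by limma), and the authors' deposited table lists Abca1 as lower at −0.86 (adjusted p = 0.00812). Without the drug WT libraries held between 1446 and 2299 of Abca1 and KO libraries between 439 and 641, a difference of −1.64 ± 0.19. Thus the KO difference was present at both levels of the gene, and the difference between the diets, 0.80 ± 0.26, did not pass (limma adjusted p = 0.681). Arl4c, a small GTPase and LXR target, was the other separated lower member, at 30.2 to 40.1 in WT and 16.0 to 29.2 in KO. Lpcat3, an LXR-induced enzyme that makes polyunsaturated phospholipids, had a log2 fold change of 0.28 ± 0.10, and Nr1h2, which encodes LXR beta, 0.21 ± 0.08 (SE, with an adjusted p of 0.237 and 0.254 by limma). Both were separated in the higher direction, and they were at 0.13 and 0.12 under quantile scaling. Abcg5 and Abcg8, the subunits of the exporter that returns sterols to the lumen, overlapped, with log2 fold changes of 0.11 ± 0.14 and 0.13 ± 0.19 (SE, with an adjusted p of 0.693 and 0.742 by limma). The value for Abcg5 was −0.0081 under quantile scaling, 0.028 without KO replicate 1, 0.067 without WT replicate 2, 0.19 without KO replicate 4 and 0.19 without WT replicate 3. That for Abcg8 was 0.023 under quantile scaling, 0.0056 without KO replicate 1, 0.084 without WT replicate 4 and 0.28 without KO replicate 4.

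Other steps of intracellular cholesterol handling were examined next. Of 14 carriers that move sterol between membranes, 3 were separated, Osbp and Osbpl9 higher and Stard5 lower. The middle of the list fell between classes 7 and 8. Separated and higher were 4.97% of genes in class 7 and 7.97% in class 8, and separated and lower 2.94% and 1.96%. Stard5, a soluble sterol-binding START protein, had 41.2, 59.2, 40.6 and 58.5 normalised counts in WT and 22.5, 23.6, 18.7 and 33.0 in KO. Its log2 fold change was −1.01 ± 0.28 (SE, with an adjusted p of 0.223 by limma), and no KO library reached the WT range. Npc1, which exports cholesterol from lysosomes, had 1051, 837, 817 and 840 in WT and 1050, 1245, 1302 and 1294 in KO. WT replicate 1 and KO replicate 1 were level for Npc1, and the other KO libraries were higher than all of WT. Of 17 tested genes of cholesterol ester and chylomicron formation, 15 had positive values, with a median of 0.19, and 3 were separated, all higher. Apob, the structural protein of chylomicrons, had 101484, 97879, 124628 and 106684 normalised counts in WT and 132492, 149483, 191033 and 142163 in KO (log2 fold change 0.51 ± 0.24, SE, with an adjusted p of 0.312 by limma). It was 0.14 under quantile scaling for Apob. Lipa, the lysosomal enzyme that splits cholesterol esters, was also separated, at 1548 to 1693 in WT and 1813 to 2514 in KO. Soat2, which esterifies cholesterol for chylomicrons, overlapped, with a log2 fold change of 0.29 ± 0.14 (SE, with an adjusted p of 0.316 by limma). The Soat2 value was 0.19 without KO replicate 3 and 0.14 under quantile scaling. The list lies high in the level range, with 11 of 17 genes in class 10, where 79.5% of genes had positive values and 15% were separated and higher, so its counts are near those of the class. Under quantile scaling its median was 0.023 with 10 positive. Without KO replicate 4 the median was 0.12.

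**Figure D2:**
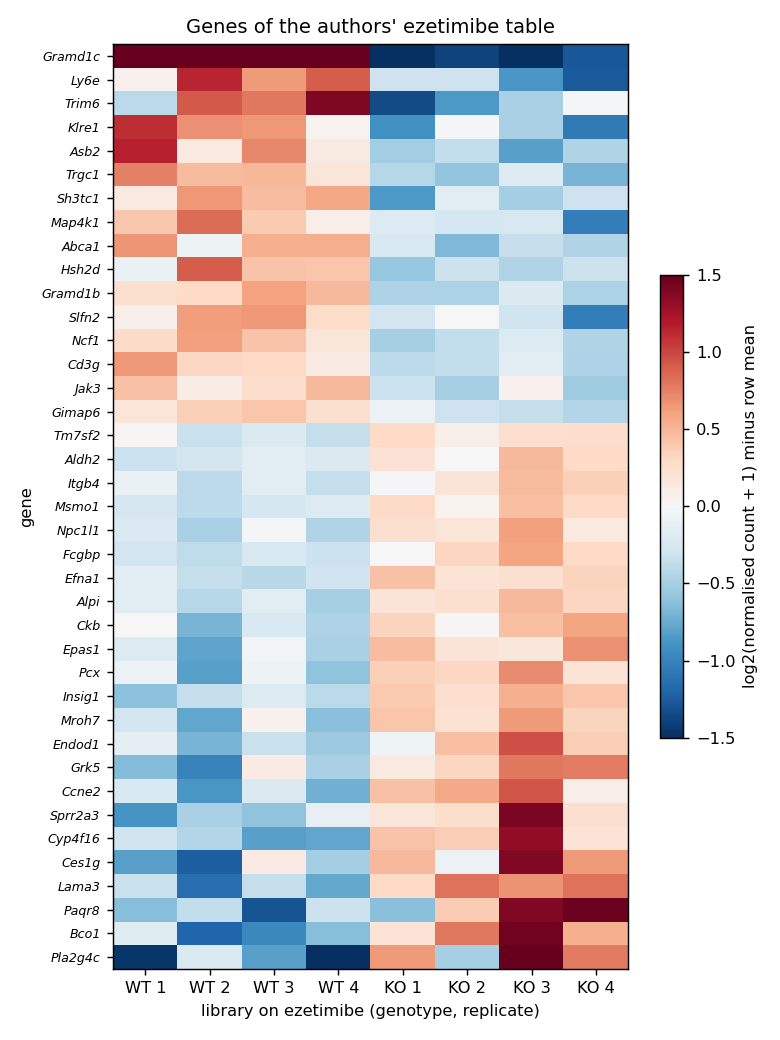
A selection of 39 of the 72 genes in the authors' deposited table for KO against WT on ezetimibe (vertical axis) in the 8 libraries (horizontal axis), coloured by log2(normalised count + 1) minus the gene's mean over these libraries, with colours limited to 1.5 in either direction. Gramd1c is the most different gene, and KO replicate 3 has the highest values for several genes at the bottom, such as Pla2g4c.

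Genes of the absorptive cell had higher values in KO, none of them called by limma. All 17 brush border and absorption genes had positive values, with a median log2 fold change of 0.30, and 5 were separated. Alpi, intestinal alkaline phosphatase (chromosome 1, 87098002 to 87101606, minus strand), had 15555, 12983, 15528 and 12354 normalised counts in WT and 19964, 20627, 24505 and 21757 in KO. Lct, which encodes lactase, had 30030, 26353, 31325 and 22570 in WT and 43437, 37850, 37577 and 41963 in KO. Both showed a gap between the genotypes, at log2 fold changes of 0.63 ± 0.17 and 0.55 ± 0.16 (SE, with an adjusted p of 0.223 for each by limma). Treh (trehalase), Ace (a peptidase) and Vil1 (villin, which bundles actin in microvilli) were the other separated members, at 0.47 ± 0.12, 0.41 ± 0.16 and 0.30 ± 0.14. Quantile scaling gave 0.33 for Lct, 0.31 for Treh, 0.17 for Ace and 0.027 for Vil1, and Vil1 was at 0.19 with WT replicate 2 and KO replicate 3 left out. On the control diet the list median was −0.078, with 7 of 17 positive, and 5 members had an unadjusted p under 0.05 for the difference between diets, where 7.02% of all genes did and none passed the adjusted test. All 17 genes lie in class 10 by level, where 79.5% of genes had positive values and 15% were separated and higher. Under quantile scaling 16 remained positive with a median of 0.073, and with WT replicate 2 and KO replicate 3 left out the median was 0.19.

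Transcription factors of the enterocyte had positive values in 9 of 11 cases (median 0.27, or 0.12 under quantile scaling), and 2 were separated. Of the 11, 6 lie in class 10, whose shares of positive and of separated higher genes, 79.5% and 15%, are near these counts. Klf4, a factor of differentiated epithelium, had 5493, 5201, 5278 and 5157 normalised counts in WT and 7570, 7180, 7913 and 5861 in KO. Gata6 had 1723, 1609, 1680 and 1615 in WT and 1905, 1930, 2138 and 2137 in KO. For both the WT libraries were tightly grouped below the KO libraries, at log2 fold changes of 0.42 ± 0.14 and 0.29 ± 0.09 (SE, with an adjusted p of 0.237 and 0.223 by limma). Under quantile scaling Klf4 was at 0.24 and Gata6 at 0.19. Hnf4a, a nuclear receptor of the enterocyte, overlapped because KO replicate 1 (17084) was just below WT replicate 3 (17109).

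The goblet cell genes were unequal. Fcgbp, a mucus protein, had 57136, 53430, 59792 and 55721 normalised counts in WT and 70255, 87199, 105356 and 86030 in KO, and is listed as higher in the authors' deposited table (log2 fold change 0.63, adjusted p = 0.00124). Muc2, the gel-forming mucin, had 16758, 15442, 14760 and 14420 in WT and 17927, 20352, 28942 and 22737 in KO (log2 fold change 0.53 ± 0.16, SE). No KO library of either gene was within the WT range. Clca1, a secreted mucus protease, was the third separated member of the list. Under quantile scaling Fcgbp was at 0.35 and Muc2 at 0.33. Tff3 and Zg16, also secreted by goblet cells, had log2 fold changes of 0.05 ± 0.10 and 0.05 ± 0.11 (SE, with an adjusted p of 0.793 and 0.813 by limma) with overlapping libraries, and these values were −0.17 and −0.16 under quantile scaling. Without WT replicate 2 they were 0.023 for Tff3 and 0.014 for Zg16. Of 8 members 5 had positive values and 3 were separated, all higher. In class 10, which held 6 of the 8, 79.5% of genes had positive values and 15% were separated and higher. The list median was 0.053, or 0.019 without WT replicate 2 and −0.17 under quantile scaling.

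Further genes of the authors' deposited table are described singly, with no list behind them. Lama3 (chromosome 18, 12333819 to 12583013, plus strand), a subunit of basement membrane laminin, had 1539, 877, 1510 and 1136 normalised counts in WT and 2373, 3393, 3089 and 3416 in KO. The lowest KO library was far above the highest WT library, with a log2 fold change of 1.30 ± 0.27 (SE, with an adjusted p of 0.171 by limma), against −0.09 ± 0.29 on the control diet. Itgb4, an integrin subunit that binds laminins in hemidesmosomes, had 2930, 2390, 2798 and 2453 in WT and 3083, 3576, 4366 and 4007 in KO. Efna1, a membrane-bound ligand of Eph receptors, was separated as well, at 0.62 ± 0.11 (log2 fold change, SE, with an adjusted p of 0.171 by limma). Efna1 differed by 0.63 ± 0.12 on the control diet too. Also in that table were Ckb (creatine kinase B), Pcx (pyruvate carboxylase) and Aldh2 (mitochondrial aldehyde dehydrogenase), separated at 0.70 ± 0.14, 0.79 ± 0.19 and 0.49 ± 0.10. The hypoxia-inducible factor gene Epas1 was also separated, at 0.76 ± 0.16. Bco1, which splits beta-carotene (chromosome 8, 117095854 to 117133720, plus strand), had 46.5, 22.5, 26.4 and 33.4 normalised counts in WT and 61.0, 92.2, 146 and 76.7 in KO. Without the drug Bco1 had 181, 116, 39.2 and 64.2 in WT and 26.8, 31.7 and 44.4 in KO. The direction on that diet was the opposite one, at −1.32 ± 0.43 against 1.49 ± 0.39 on ezetimibe. KO replicate 3 carried part of 2 listed values. Pla2g4c, a phospholipase, had 48.2, 21.4, 291 and 53.3 in KO and 9.28 to 26.3 in WT. The log2 fold change of Pla2g4c was 2.06, or 1.33 without KO replicate 3. Cyp4f16, a fatty acid hydroxylase, had 9916, 9516, 18563 and 8462 in KO and 4200 to 5974 in WT.

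Lymphocyte genes had lower values in KO, none of them called by limma. Of 14 T and NK cell genes 13 had negative values, with a median log2 fold change of −0.53, and 4 were separated, all lower. In bulk tissue fewer cells of a type and less RNA per cell cannot be told apart. Cd3g, a subunit of the T cell receptor complex (chromosome 9, 44969572 to 44980431, minus strand), had 479, 377, 374 and 332 normalised counts in WT and 231, 236, 272 and 220 in KO. Gzma, the granzyme A gene of cytotoxic cells, had 3342, 3105, 3447 and 2471 in WT and 2086, 2058, 2422 and 1812 in KO. All KO libraries were below all WT libraries for both, at −0.69 ± 0.17 and −0.56 ± 0.18 (log2 fold change, SE, with an adjusted p of 0.223 and 0.234 by limma). The chemokine gene Ccl5 and Cd7, a surface protein of T and NK cells, were separated likewise. The summed counts of the list overlapped, at 6830 to 9416 in WT and 5101 to 7025 in KO. The list's median was −0.53 under quantile scaling and ranged from −0.64 to −0.46 when each library was left out. The list's middle member was in class 6, where 5.88% of genes were separated and lower. The control diet gave −0.66, with 3 of 14 separated and lower, where 5.57% of all genes tested were.

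Further genes are described singly from the 25 that the authors' deposited table lists as lower, with no list behind them. Trgc1, a constant segment of the gamma chain of the T cell receptor, had 392, 323, 327 and 265 normalised counts in WT and 172, 154, 203 and 143 in KO. Its near-identical copies could share reads, so the value for Trgc1 alone is uncertain. Klre1, an NK cell receptor, had 89.8, 66.7, 65.1 and 42.7 in WT and 21.4, 40.7, 29.2 and 19.2 in KO. Jak3, the kinase of common gamma chain cytokine receptors, had 192, 152, 170 and 199 in WT and 112, 99.7, 147 and 96.9 in KO. In these 3 genes the highest KO library was below the lowest WT library. Gimap6, Slfn2 and Map4k1, all expressed in lymphocytes, were separated and lower at −0.59 ± 0.14, −0.82 ± 0.21 and −0.87 ± 0.23 (log2 fold change, SE, with an adjusted p of 0.204 to 0.223 by limma). Ncf1, a subunit of the phagocyte oxidase, had 106, 133, 117 and 98.4 in WT and 61.0, 66.5, 74.7 and 62.8 in KO. Ly6e, an interferon-inducible surface protein (chromosome 15, 74955051 to 74959905, plus strand), had 741, 1560, 1101 and 1330 in WT and 572, 570, 386 and 296 in KO. Its log2 fold change was −1.37 ± 0.28 (SE, with an adjusted p of 0.171 by limma), and the authors' deposited table gives Ly6e an adjusted p of 0.00124. The authors' deposited table for the control diet lists Ly6e, Jak3, Map4k1, Gimap6, Slfn2 and Ncf1 as lower as well. It does not list Trgc1 or Klre1.

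Other immune lists were less even. Of 12 myeloid genes 11 had negative values and the median was −0.59, which became −0.27 without KO replicate 3, and 1, Lyz2, was separated. The middle member was in class 4, where 31.0% of genes had positive values and 9.37% were separated and lower. On the control diet the myeloid median was 0.29, with 9 of 12 positive. Lyz2 had 214, 397, 203 and 236 normalised counts in WT and 184, 122, 54.9 and 65.0 in KO. Of 19 interferon response genes 14 had negative values, with a median of −0.36 that became −0.035 without KO replicate 4. The middle member was in class 8, where 1.96% of genes were separated and lower. Ifit2 was the separated member, at 52.8 to 86.8 in WT and 14.9 to 51.4 in KO, while Isg15 and Bst2 overlapped, at −0.66 ± 0.26 and −0.76 ± 0.26 (log2 fold change, SE, with an adjusted p of 0.257 and 0.237 by limma). Without KO replicate 4, Isg15 was at −0.40 and Bst2 at −0.45. Mx1, another member, had 233, 172, 264 and 209 in WT and 304, 436, 486 and 229 in KO, in the opposite direction to most of the list. Cd74, the invariant chain of class II antigen presentation, overlapped, with a log2 fold change of 0.06 ± 0.30 (SE, with an adjusted p of 0.93 by limma). Cd74 was −0.14 under quantile scaling, −0.086 without KO replicate 3 and 0.26 without KO replicate 4. Of 7 class II genes 5 had positive values, with a median of 0.036, or −0.10 without KO replicate 3. On the control diet all 7 were negative, with a median of −0.90, and 3 were separated and lower, beside 5.57% of all genes tested.

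Genes of dividing cells had lower values in KO, none of them called by limma. All 21 proliferation genes had negative values, with a median log2 fold change of −0.67, and 11 were separated. Mki67, which encodes the proliferation antigen Ki-67, had 628, 799, 522 and 668 normalised counts in WT and 456, 478, 390 and 329 in KO. Tyms, thymidylate synthase, had 82.4, 124, 67.9 and 101 in WT and 48.2, 46.1, 35 and 33.0 in KO. The genotypes did not overlap for either, at log2 fold changes of −0.66 ± 0.27 and −1.17 ± 0.32 (SE, with an adjusted p of 0.27 and 0.223 by limma), and neither is in the authors' deposited table for ezetimibe. Top2a, a topoisomerase of dividing cells, and Mcm5 and Mcm6, subunits of the replicative helicase, were separated too, at −0.74 ± 0.30, −0.90 ± 0.33 and −0.45 ± 0.16. Summed counts of the list were 3520 to 5175 in WT and 2698 to 3425 in KO. The list's middle member was in class 4 by level, whose own median was −0.15 and where 9.37% of genes were separated and lower. On the control diet the list median was −1.21, again with 11 of 21 separated and lower, beside 5.57% of all genes tested. Ccne2, the cyclin E2 gene, which was not on the list, went the other way on ezetimibe, with 195, 124, 197 and 138 normalised counts in WT and 309, 339, 439 and 245 in KO.

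Crypt base genes varied widely between WT mice. All 10 Paneth cell genes had negative values (median −0.63), but none was separated and the median became −0.24 without WT replicate 2. On the control diet all 10 were negative too, with a median of −1.68. There 9 were separated and lower, beside 5.57% of all genes tested. The middle member was in class 9 by level. Lyz1, lysozyme of Paneth cells, had 4137, 13627, 3477 and 8025 normalised counts in WT and 3964, 5371, 3194 and 4121 in KO. WT replicates 2 and 4 were high and the other WT libraries were within the KO range. Defa22, one of the closely related alpha-defensins that may share reads, was high in the same WT libraries, at 868, 3990, 901 and 2263, against 749 to 981 in KO. Of 9 stem cell genes 6 had negative values and none was separated. The middle member was in class 5, where 37.6% of genes had positive values, so the count is near that of the class. Olfm4, a stem cell marker, had 1055, 1464, 546 and 1150 in WT and 559, 1094, 433 and 321 in KO.

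**Figure D3:**
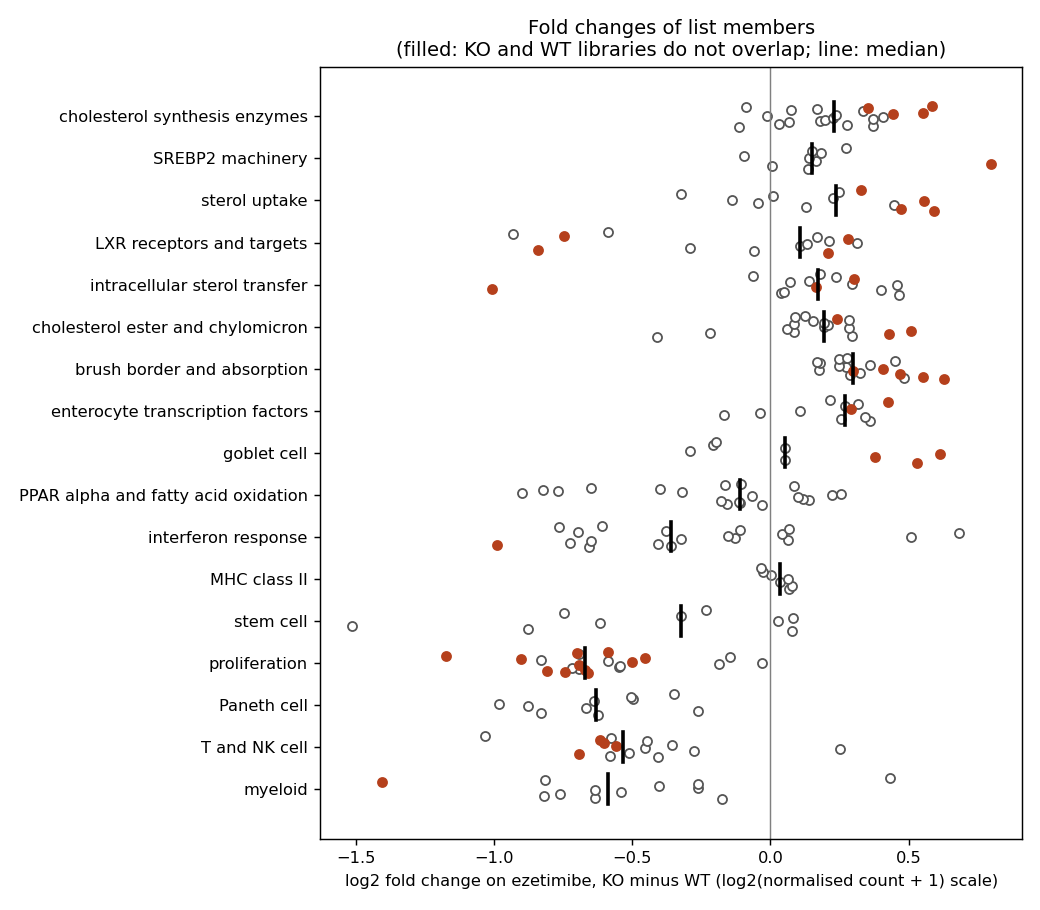
Log2 fold change of KO against WT on ezetimibe (horizontal axis) for each tested member of 17 gene lists (vertical axis), with filled points where the 4 libraries of each genotype do not overlap and a line at the list's median. The brush border genes all lie above 0 and the proliferation and Paneth cell genes all lie below it, while LXR genes lie on both sides.

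The same genotype contrast on the control diet shares no library with this one. Of 424 genes that the authors' deposited table lists on the control diet, 398 had the same sign on ezetimibe (93.9%), against 60.1% of all genes tested. Their median size was 0.72 on the control diet (log2), and on ezetimibe the median was 0.30 in the same direction. The 230 listed as lower had the same sign in 223 cases, with a median of 0.45 in the same direction, and the 194 listed as higher in 175, with a median of 0.15. Separated on ezetimibe in the same direction were 120 (28.3%), and 3 in the opposite direction (0.708%), against 7.55% and 2.38% of all genes tested. Read the other way, 62 of the 72 genes listed on ezetimibe (86.1%) had the same sign on the control diet, and 31 were separated there in the same direction and 0 in the opposite one, beside 12.2% of all genes separated in either direction. The tables share 21 genes, which is 29.2% of the shorter and 4.95% of the longer. Of these 20 had the same sign and Bco1 did not.

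**Figure D4:**
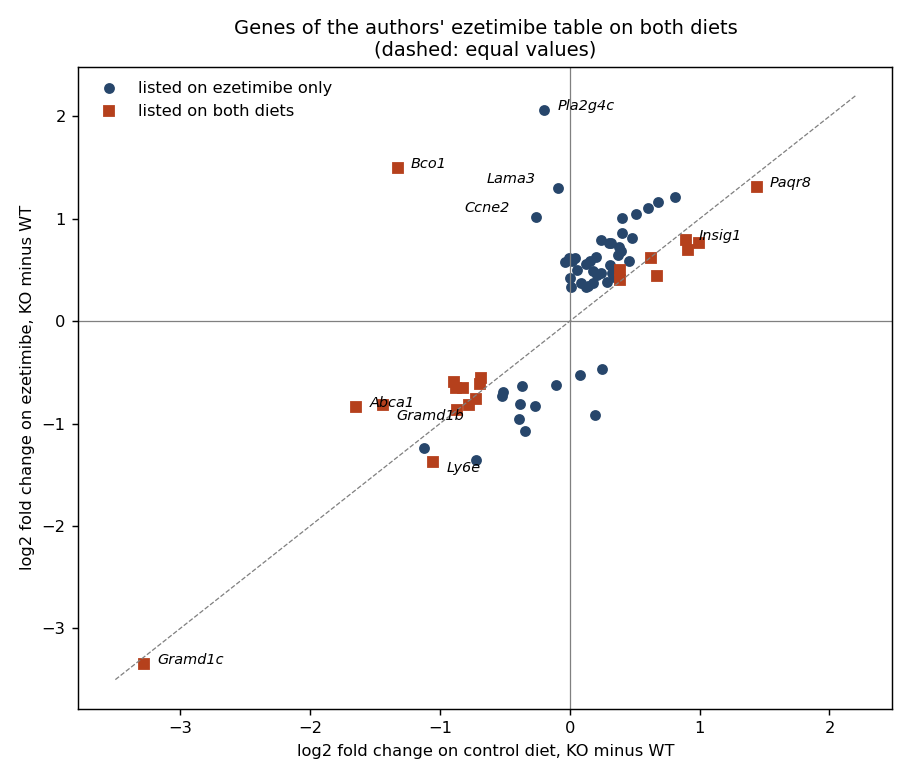
Log2 fold change of KO against WT on the control diet (horizontal axis) and on ezetimibe (vertical axis) for the 72 genes of the authors' deposited ezetimibe table, with squares for the 21 genes listed on both diets and a dashed line of equal values. Gramd1c lies at about the same place on both axes, Abca1 and Gramd1b lie nearer to 0 on ezetimibe, and Bco1 is positive on ezetimibe and negative on the control diet.

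Whether the KO difference itself depended on the drug was tested as the difference of the differences. Limma called 0 genes, with 1004 at an unadjusted p under 0.05 (7.02%), and edgeR and limma-voom also called 0. DESeq2 called 5 genes, Fosb, Bco1, Naip6, Kansl1 and Ccne2, of which the first 3 were also called by DESeq2 with no filter on low values. Fosb, an immediate early transcription factor, had 177, 187, 130 and 152 normalised counts in WT and 260, 363, 367 and 214 in KO on ezetimibe. Without the drug Fosb had 438, 172, 518 and 148 in WT and 88.5, 68.8 and 109 in KO. KO was thus above WT on one diet and below it on the other in every library, and the difference of the differences was 2.52 ± 0.50 by limma (log2, SE, adjusted p = 0.681) and 2.74 by DESeq2 (adjusted p = 0.000462). Naip6, a sensor of bacterial flagellin with near-identical relatives, and Kansl1, part of a histone acetyltransferase complex, were 0.37 ± 0.15 and 0.23 ± 0.09 on ezetimibe and −0.73 ± 0.16 and −0.40 ± 0.10 on the control diet (log2 fold change, SE). Under quantile scaling Naip6 was at 0.24. Limma called Naip6 without WT ezetimibe replicate 3. Genes of fatty acid oxidation and its receptor PPAR alpha had a median of −0.11 on ezetimibe, with 14 of 20 negative, 0 separated and the middle member in class 9 (−0.073 without KO replicate 3 and −0.24 under quantile scaling), and of 0.27 on the control diet, with 16 of 20 positive. At an unadjusted p under 0.05, 8 of the 20 differed between the diets, beside the 7.02% of all genes. Acot1, an acyl-CoA thioesterase, had −0.82 ± 0.32 on ezetimibe and 0.67 ± 0.34 on the control diet (log2 fold change, SE) and passed in neither comparison by limma. On ezetimibe Acot1 was at −0.45 with WT replicate 2 and KO replicate 3 left out.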

How the data were processed

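Per the labels' protocols, TRIzol was used to extract total RNA from the distal jejunum, and libraries came from the NEBNext Ultra II RNA kit. The submitters' processing notes name STAR 2.6.0c, DESeq2, FastQC and mm10. The read counter, annotation and use of strand are not stated in these sources, and overlapping and antisense genes were not told apart.

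The deposited table of the 15 libraries holds normalised counts (a signal) from DESeq2, per the file headers. In each library 100% of values were whole multiples, within 0.02, of what 1 read is worth, and the recovered reads gave the depth. The authors' deposited comparison tables give, per the file headers, a fold (ratio), a log2 fold change, a Wald score and both raw and adjusted p-values.

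Limma 3.58.1 (R 4.3.3) with a mean-variance trend was fitted to log2(value + 1) of all 15 libraries, so the 4 groups share 1 estimate of the spread. This scale understates fold changes of low genes. P-values were adjusted by Benjamini-Hochberg over 14299 genes, and 0.05 was the threshold. The members and the 38 gene lists were chosen with earlier results of these data known. Genes named are the targeted genes, up to 12 at each end of the authors' list by fold change, up to 4 per list and 6 for the difference between diets, by smallest p. Osbp, Osbpl9, Soat2, Tff3, Zg16 and some others named for their role, or among the separated members, were chosen after their values were seen. List genes outside the tested set are not counted. The tests were tried on simulated data first. Alternatives were pseudocounts of 0.5 and 5, other filters, TMM and quantile scaling, the 8 libraries alone, robust moderation, the replicate number as a block, edgeR 4.0.16, DESeq2 1.42.0 and limma-voom on recovered reads, and each ezetimibe library left out. Chosen after seeing the data were each control-diet library left out for the difference between diets, DESeq2 with no filter on low values, and a fit without WT replicate 2 and KO replicate 3. A few genes are not reported here. Coordinates are from GENCODE on GRCm38. Figures were drawn with matplotlib 3.10.9.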

Additional observations from a re-analysis of the deposited data

Results flagged for a closer look

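Among 98 genes checked in the 2 ezetimibe groups, 15 of 196 groups (7.65%) had a library whose gap to its neighbour was large for the range of its group. The rule gives about 1 in 20 for independent, normally distributed values. These genes share the same 8 libraries and were partly chosen with their values known, so the 2 shares cannot be compared as a test. KO replicate 3 accounted for 7 of the 15. It was high for Gramd1b (2086 normalised counts, against 1744 to 1763 in the other KO libraries), Gramd1a (242.9, against 184.3 to 185.3), Clca1 (34590, against 22330 to 23110), Cyp4f16 (18560, against 8462 to 9916), Pla2g4c (290.7, against 21.44 to 53.26), Sprr2a3 (3950, against 1675 to 1770) and the ileal gene Fabp6 (2535, against 107.1 to 320.6). Reads of Sprr2a3 and its near-identical copies were not told apart.

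KO replicate 2 was low for Tff3 (14330, against 16590 to 16660) and high for Ascl2, a stem cell factor (13.94, against 5.326 to 5.838). KO replicate 4 was low for Map4k1 (40.48, against 69.69 to 72.82). In WT, replicate 2 was high for Hmgcs1 (3952, against 3188 to 3251) and Lyz2 (397.2, against 202.8 to 235.8). WT replicate 3 was high for Abcg5 (3452, against 2648 to 2783) and Naip6 (4964, against 2939 to 3168), and WT replicate 1 was high for Npc1 (1051, against 816.9 to 840.2).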

How the results depend on the processing

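Gramd1c passed in each alternative tried. The number of genes called in KO was 1 by limma and stayed at 1 with each of the 8 ezetimibe libraries left out, under other pseudocounts and filters, under TMM, and by edgeR and limma-voom. It was 2 under quantile scaling (Gramd1b and Gramd1c), 3 with the 8 ezetimibe libraries alone (Insig1, Gramd1b and Gramd1c), 86 by DESeq2 (0.804% of 10694 genes, 71 of them in the authors' table) and 72 by DESeq2 without a filter, all 72 in the authors' table. For the difference between diets the number was 0 by limma, 0 to 1 with each of the 15 libraries left out, 5 by DESeq2 and 3 by DESeq2 without a filter. The number of separated genes was 1420, and from 1564 to 2857 with 1 library left out, where fewer libraries make separation easier. With the replicate number as a block 6 genes were called (Efna1, Abca1, Sh3tc1, Amd1, Gramd1b and Gramd1c). The labels do not say that a number pairs mice. The block also raised the genes at an unadjusted p under 0.05 by limma from 2352 to 3204, and from 1004 to 1925 for the difference between diets. Deviations from the group means correlated at r of 0.0123, 0.149, 0.263 and 0.125 within numbers, and at −0.246 to 0.138 between unlike numbers. WT replicates 2, 3 and 4 each correlated best with the KO library of the same number, and WT replicate 1 with KO replicate 2 (0.0313). The main fit used no block, and whether a number marks a shared condition was not tested. Signs turned under quantile scaling for Abcg5 (−0.008143), Tff3 (−0.1705), Zg16 (−0.1626) and Cd74 (−0.1372). With each ezetimibe library left out Cd74 ranged from −0.08635 (without KO replicate 3) to 0.2636 (without KO replicate 4), and it was negative with KO replicate 3 and WT replicate 2 both left out (−0.09867). The cause was not tested. Depth most limits genes of few counts, such as Arl4c, Stard5 and Bco1.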
